A study of Homo sapiens with 6 samples.

Results

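The nuclear genes for the subunits of the respiratory chain were described in SH-SY5Y, a human line grown from a neuroblastoma. Members were all genes of the count table with a symbol of the NDUFA, NDUFB, NDUFC, NDUFS or NDUFV series, NDUFAB1, the UQCR subunits, the COX4 to COX8 subunits, or the ATP5 subunits F1A to F1E, MC1 to MC3, ME, MF, MG, PB, PD, PF and PO. The rule found 78 of 60709 genes, of which 37 belong to complex I, 8 to complex III, 18 to complex IV and 15 to complex V. NDUFA4 carries a complex I name and was counted with complex IV, of which its protein is a subunit.

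The labels describe 3 control samples and 3 samples treated with a fumarate linked to an Nrf2 peptide, for which 2 mg of peptide was put into 600 uL of water and 200 uL of this was added. Control wells held 2 mL of medium at 80% confluence, received 10 uL of DMSO and were lysed 5 h later. All values below are from the control libraries, because no column heading of the table carries a number that the labels give to a treated sample. The headings 4, 5 and 6 equal the numbers that the labels give to control replicates 1, 2 and 3. Nothing else identifies these columns, and if the headings were numbered anew the values could be those of treated cells. Whether the wells came from separate cultures is not stated in the labels.

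The respiratory chain passes electrons from NADH and succinate to oxygen and pumps protons across the inner mitochondrial membrane, and ATP synthase, complex V, uses the proton gradient to make ATP. Most subunits are encoded in the nucleus and imported, while a small core is encoded in mitochondrial DNA, so each complex except complex II is assembled from the products of both genomes. Some subunits of complex IV and ATP synthase exist as paralogs used in different tissues. The nuclear genes are under the control of NRF1 and of GABP, also called nuclear respiratory factor 2, which is a different protein from the Nrf2 (NFE2L2) of the peptide's name.

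Library totals ranged from 8887854 to 11397407 counts. Levels are given as CPM, counts per 1000000 of the library total after TMM scaling, a correction for differences in library composition. Of 8 markers of noradrenergic neuroblastoma, 7 had at least 10 counts in every library, with a summed level of 2378 to 2692 CPM, while TH had 0 counts in each. Of 8 mesenchymal markers, 7 reached that minimum, with a summed level of 726 to 757 CPM, and PRRX1 had 0 counts. Of 6 markers of other cell types, EPCAM alone reached it, and their sum was 1.96 to 2.45 CPM. Replicate 3 stood apart from the others in its GC-dependent signal, and results that it decides are also given without it.

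Promoter sequences are shown for 3 members of complex IV, to set a subunit gene with matches to the respiratory factor motifs (COX5B) and the widely used COX6A1 beside its paralog COX6A2, which is the heart and muscle form. Each is the 250 bases before the gene's start in RefSeq (GRCh38.p14), from 5′ to 3′ on the gene's strand. Capitals mark TGCGCA (the repeated unit of the NRF1 site), CCGGAAGT (the ETS motif bound by GABP) and TATAAA. COX5B lies at chr2:97645812-97646061 on the plus strand, COX6A1 at chr12:120437863-120438112 on the plus strand and COX6A2 at chr16:31428361-31428610 on the minus strand.
COX5B: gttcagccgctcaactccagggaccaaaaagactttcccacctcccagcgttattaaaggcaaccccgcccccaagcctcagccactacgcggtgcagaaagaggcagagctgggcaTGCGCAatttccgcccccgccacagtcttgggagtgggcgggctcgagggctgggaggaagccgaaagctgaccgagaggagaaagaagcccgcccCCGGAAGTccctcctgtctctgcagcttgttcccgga
COX6A1: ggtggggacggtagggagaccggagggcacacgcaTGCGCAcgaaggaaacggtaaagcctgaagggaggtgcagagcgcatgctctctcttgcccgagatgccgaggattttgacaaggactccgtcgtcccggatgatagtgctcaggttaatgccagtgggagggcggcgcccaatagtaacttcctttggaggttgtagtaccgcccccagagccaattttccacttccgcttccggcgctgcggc
COX6A2: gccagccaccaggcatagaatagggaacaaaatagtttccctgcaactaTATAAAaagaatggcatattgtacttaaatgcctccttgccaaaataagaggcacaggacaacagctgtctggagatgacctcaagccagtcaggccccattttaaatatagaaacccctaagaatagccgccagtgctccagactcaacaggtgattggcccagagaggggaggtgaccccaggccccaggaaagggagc

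The COX5B and COX6A1 stretches held 15 and 19 CG dinucleotides, and that of COX6A2 held 1. COX5B was measured at 136, 141 and 119 CPM in replicates 1, 2 and 3, and COX6A1 at 48.7, 45.4 and 53.3 CPM. COX6A2 had 1, 0 and 0 counts, so the paralog with the CG-poor promoter was barely detected in any library. Other COX pairs with a window for both genes were mixed, in windows that add the 50 bases after the start. COX7B2 and COX8C, at 0 counts, held 8 and 10 CG dinucleotides against 14 and 18 for COX7B and COX8A. COX6B2, with 11, 9 and 5 counts, went the other way, with 31 against 16 for COX6B1. No test was made.

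Windows from 250 bases before to 50 after the start were found for 64 of the 78 members, 9 of which had more than 1 window, and a gene was counted once if any window held a match. Both strands were searched. TGCGCA, which reads alike on both strands and can overlap the longer NRF1 site, was found for 28.1% of the members, 9.76% of all 27305 genes with a window and 16.4% of the 10620 that had at least 10 counts in every library. The longer palindromic NRF1 site was found for 4.69% of the members, 1.52% of all genes and 2.65% of those with counts. CCGGAAGT was found for 15.6%, 4.95% and 9.86% in the same order.

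AAGATGGC, a motif of YY1, was found for 17.2% of the members, 3.52% of all genes and 6.48% of those with counts. GGGGCGGG, a motif of the SP family, went the other way, with 18.8% of the members against 25.9% of all genes and 45.6% of those with counts. TATAAA was found for 10.9%, 14.0% and 8.18%. TGACNNNGC, the core of the antioxidant response element that NRF2 binds, was found for 18.8%, 16.1% and 19.4%, so its share among the members lay between those of the other gene sets. These shares describe letters in a fixed window and do not show binding.

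A minimum of 10 counts in each library was met by 71 of the 78 members, against 22.9% of all genes of the table. The members held 0.717%, 0.725% and 0.725% of the counts of replicates 1, 2 and 3. Their summed level was 7161, 7227 and 7273 CPM, a mean of 7220.4 ± 56.1 (SD, n = 3), so the sum differed little between libraries. Per kilobase of the longest transcript, the median over the 71 members was 49.4 CPM, against 8.37 over the 13863 genes of the table that met the minimum and had a transcript length. In that ranking 64 of the 71 lay above the median gene and 40 in the top 10%. With the median transcript length in place of the longest, these counts were 64 and 22, so the share in the top 10% depends on the length used.

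**Figure D1:**
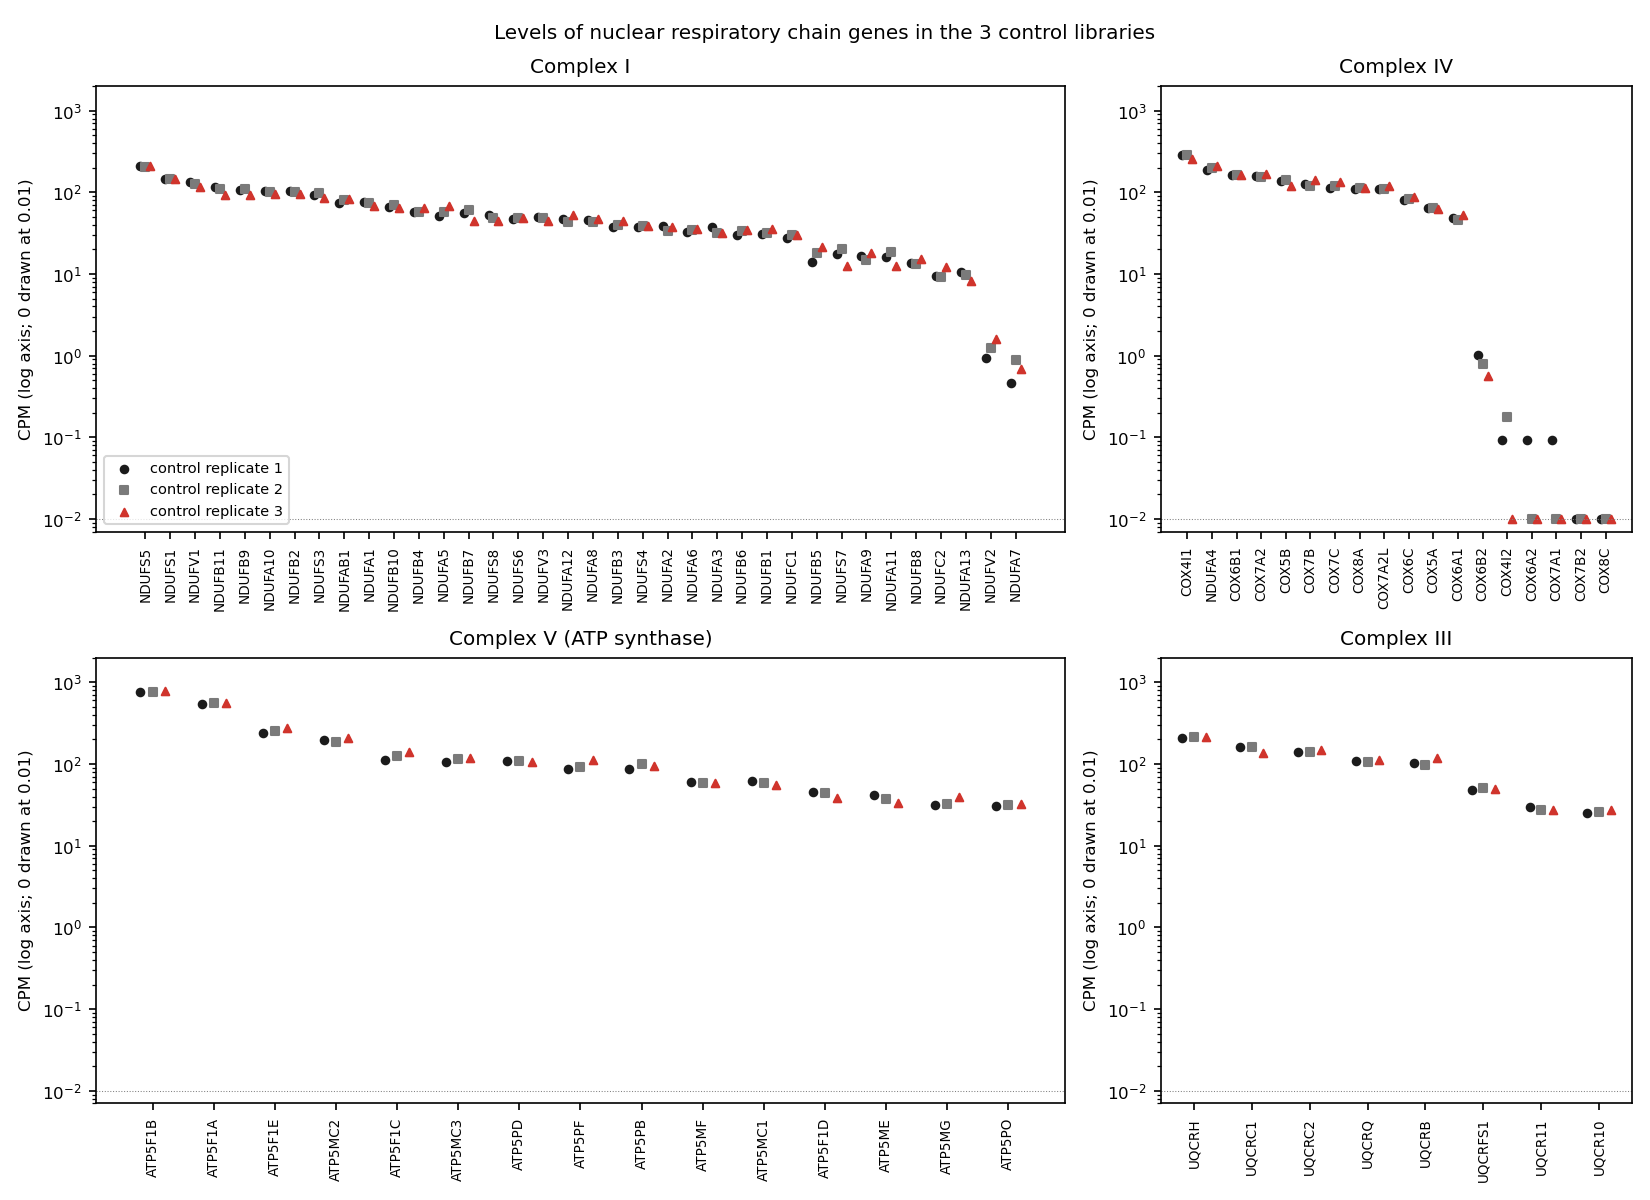
Level of 77 of the 78 genes in each control library, in CPM on a log axis, in 4 panels by complex and ordered by the mean of 3 libraries. A value of 0 is drawn at 0.01. Points of the same gene lie close together except where counts are low, NDUFV2 and NDUFA7 lie apart from the other complex I genes at 0.468 to 1.58 CPM, and 6 COX genes lie near or at 0.

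Complex I takes electrons from NADH. Its nuclear genes were summed to 2232, 2229 and 2167 CPM, 2209 ± 36.6 (SD, n = 3), and 36 of 37 passed the count minimum. NDUFS5, an accessory subunit, had the highest level per kilobase under both lengths, with 211, 206 and 211 CPM and 382 CPM per kilobase. Its libraries differed by less than 5%.

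Among the nuclear core subunits of complex I, NDUFS1 had 146, 144 and 146 CPM, or 145 ± 1.15 (n = 3). NDUFV1, which binds NADH and FMN, had 125 ± 9.22 CPM, NDUFS3 had 91.7 ± 6.21 CPM and NDUFS8 had 48.3 ± 3.89 CPM. NDUFS7, an iron-sulfur subunit, had 17.7, 20.2 and 12.5 CPM from 189, 231 and 111 counts. NDUFV2, which carries an iron-sulfur cluster of the NADH module, had 10, 14 and 14 counts. It was thus listed at 1.25 ± 0.323 CPM, although its protein is a core subunit present once in every complex. NDUFA7, an accessory subunit of the same module, had 5, 10 and 6 counts and was the only complex I gene that missed the minimum.

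The gene annotation was therefore examined around each member, a choice made after these values were seen. In GENCODE release 29 (GRCh38), NDUFV2 lies at chromosome 18, 9102630 to 9134345, on the plus strand, and 82.9% of the bases of its principal mRNA also lie in exons of AP005263.1 on the same strand. NDUFA7 lies at chromosome 19, 8308768 to 8321396, on the minus strand, and 75.9% of its mRNA lies in exons of AC010323.1. Both overlapping genes had 0 counts in every library. In addition, 26.2% of the 50-base stretches of the NDUFV2 mRNA occur in the pseudogene NDUFV2P1, which had 1, 5 and 6 counts.

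Over 50% of the mRNA was shared in this way for 5 of the 78 members. The others were NDUFB8 with 71.7%, ATP5PO with 70.3% and NDUFA11 with 67.0%, which were measured at 14.1 ± 0.955, 31.5 ± 0.561 and 15.8 ± 3.03 CPM (n = 3). Their overlapping genes, AL133352.1, AP000311.1 and AC024592.3, also had 0 counts in every library. Of these 5 members, 4 passed the count minimum, with a median of 8.83 CPM per kilobase, against 53.9 for the 55 of 60 members that share no base and passed. For the 13 members that share up to 50%, 12 passed, with a median of 21.4. These medians leave out the members below the minimum.

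The relation was not uniform. ATP5MF, with 46.2% shared, and COX8A, with 34.5%, were measured at 76.6 and 221 CPM per kilobase. NDUFB5 and NDUFS7 share no base on their own strand and had only 4.40 and 4.49 CPM per kilobase by the longest transcript. By the median length they had 24.1 and 16.01. On the opposite strand, 37.9% of the NDUFS7 mRNA lies in exons of AC005329.1 and AC005329.3, while NDUFB5 shares no base there either. How reads that fall in 2 genes were counted is not stated in the sources used here, the authors' annotation release may differ from release 29, and the part of overlap in the low levels was not tested.

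**Figure D2:**
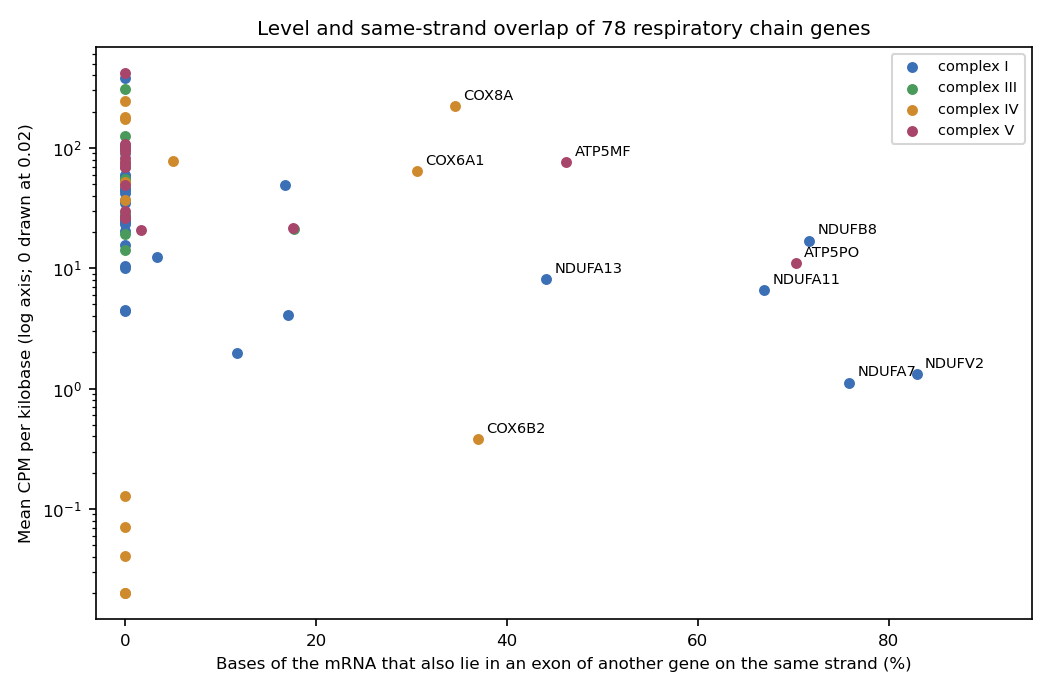
Mean CPM per kilobase of the longest transcript (log axis, 0 drawn at 0.02) against the percentage of each gene's principal mRNA that also lies in an exon of another gene on the same strand, for 78 genes coloured by complex. The 5 genes above 50% lie at 1.12 to 17.0, and genes at 0% spread over the whole axis.

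Overlap on the opposite strand involved over 20% of the mRNA of 10 members. It was 83.4% for NDUFB2, most of it with BRAF (74.4%), and 45.8% for NDUFB11, which faces RBM10. The value for NDUFB2 depends on the transcript, since its principal mRNA has 1666 bases and its median transcript 539. Of all its exonic bases, 27.9% overlap BRAF. NDUFB2 and NDUFB11 were measured at 99.4 ± 3.33 and 107 ± 12.8 CPM (n = 3). The libraries came from a stranded kit, but whether strand was used in counting is not stated, so reads of such pairs may not have been told apart. ATP5PF, a stalk subunit of ATP synthase, overlaps the opposite strand of GABPA, a subunit of the respiratory factor GABP, over 23.5% of its mRNA.

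Complex III passes electrons from ubiquinol to cytochrome c, and all 8 of its members passed the count minimum. Their sum was 824, 824 and 834 CPM, 828 ± 5.87 (SD, n = 3). UQCRH, the hinge protein, had the highest level per kilobase under both lengths, with 208, 213 and 213 CPM. Its mRNA shares 29.4% of its 50-base stretches with UQCRHL, which had 168, 172 and 114 counts of its own, so the split of reads between the pair is uncertain. UQCRQ had 109, 106 and 114 CPM.

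The core proteins UQCRC1 and UQCRC2 were measured at 152 ± 14.8 and 144 ± 4.33 CPM (n = 3). The spread of UQCRC1 came from replicate 3, at 135 CPM against 159.6 and 162 in the others. UQCRFS1, the Rieske iron-sulfur protein, had 47.9, 50.6 and 49.1 CPM and the lowest level per kilobase of the complex, 14.2, under both lengths. UQCRB had 104, 97.9 and 119 CPM and was next to lowest by the longest transcript, whereas by the median length UQCR10 took that place.

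Complex IV, cytochrome c oxidase, passes electrons to oxygen. Its nuclear genes were summed to 1588, 1603 and 1627 CPM, 1606 ± 19.5 (SD, n = 3). Of its 18 members, 12 passed the count minimum and 6 did not. The 12 lay within 6.70-fold of each other in CPM per kilobase, against 21.7-fold in complex III, 37.7-fold in complex V and 289-fold over the 36 genes of complex I, by the longest transcript. By the median length the ranges were 5.41-fold in complex IV, 24.0-fold in III, 18.5-fold in V and 198-fold in I. Complex IV thus had the narrowest range under both lengths and the order of III and V turned. The low end of complex I was NDUFV2, from 10, 14 and 14 counts. It lay at 1.32 and 1.94 CPM per kilobase by the longest and median length. The next lowest values among the 36 genes were 1.97 and 14.8, so the range by the median length rests on NDUFV2. All ranges leave out members below the count minimum, 6 of them in complex IV. COX6B1, with 164, 164 and 162 CPM, was highest by the longest transcript, followed by COX8A with 110.3, 114 and 112 CPM, and COX4I1 was highest by the median length.

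The paralog pairs differed by wide margins. COX4I1, the general form of subunit 4, had 288, 289 and 253 CPM. COX4I2, the form known from lung and from cells in low oxygen, had 1, 2 and 0 counts. COX6B1 had 1756, 1874 and 1438 counts, whereas COX6B2, a testis form, had 11, 9 and 5. In both pairs the general form was high and its paralog barely detected in every library.

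COX7A2 had 157, 154 and 168 CPM, and COX7A1, the heart and muscle form, had 1, 0 and 0 counts. COX7A2L, a relative that joins complexes III and IV in supercomplexes, had 109, 109 and 118 CPM. COX7B had 127, 119 and 141 CPM and COX8A is given above. Their testis paralogs COX7B2 and COX8C were at 0 counts throughout, which leaves room for levels up to 0.339 CPM in replicate 3, the shallowest library. The forms detected at high levels were therefore COX4I1, COX6A1, COX6B1, COX7A2, COX7A2L, COX7B and COX8A.

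COX6A1 carries a limit of its own, since 34.6% of the 50-base stretches of its mRNA occur in the pseudogene COX6A1P2, which had 17, 21 and 21 counts. In addition, 30.6% of its mRNA lies in same-strand exons of AL021546.1, which had 0 counts in every library. The table lists 173 pseudogenes named after 45 of the members. Together these had 72, 87 and 69 counts, 0.0940%, 0.105% and 0.107% of the members' own counts, and 134 of them had 0 counts in every library. NDUFA4, counted here with complex IV, had 189, 200.3 and 213 CPM.

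Complex V held the largest share of the members' counts, with a sum of 2517, 2571 and 2645 CPM, or 2578 ± 64.2 (SD, n = 3), and all 15 members passed the minimum. ATP5F1B, the catalytic beta subunit, had the highest level per kilobase of all 78 members, 419 CPM, with 769, 766 and 777 CPM in the libraries. ATP5F1A, its alpha partner in the F1 head, had 543, 560.4 and 557 CPM. The gamma subunit ATP5F1C was second by the longest transcript, at 108 CPM per kilobase, and had 111, 126 and 140.0 CPM, lowest in replicate 1 and highest in replicate 3. ATP5F1D and ATP5F1E, the other subunits of the F1 head and stalk, were measured at 42.7 ± 3.29 and 256 ± 16.9 CPM (n = 3).

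ATP5MC1, ATP5MC2 and ATP5MC3 encode precursors of the same mature c subunit, which forms the rotor ring, and counts were recorded for all 3. ATP5MC2 had 196, 185 and 208 CPM, ATP5MC3 had 105, 116 and 118 CPM and ATP5MC1 had 62.1, 58.2 and 55.1 CPM, without overlap between the genes in any library. Per kilobase, ATP5MC2 was highest under both lengths, but the order of the other two turned, with 26.4 for ATP5MC1 and 20.6 for ATP5MC3 by the longest transcript and 103 and 134 by the median.

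The peripheral stalk genes ATP5PD, ATP5PF and ATP5PB were measured at 107 ± 1.64, 97.3 ± 12.6 and 93.6 ± 6.55 CPM (n = 3). ATP5PO, which connects the stalk to the F1 head, had 31.0, 31.6 and 32.1 CPM and the lowest value per kilobase of the complex by the longest transcript. By the median length, ATP5MG was lowest. The membrane subunits ATP5MF, ATP5ME and ATP5MG had 59.3 ± 0.307, 37.4 ± 3.95 and 34.3 ± 4.30 CPM.

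The spread of the members between libraries was compared with that of all genes as a description. The median coefficient of variation was 6.58% over 71 members and 8.69% over 13920 genes. These sets were not matched for level, with a median of 66.6 CPM for the members and 31.3 CPM for all genes. Counting error is smaller at higher counts, so the medians do not compare genes of equal level. Without replicate 3 the median of the members was 3.14%, against 5.76% without replicate 1 and 7.25% without replicate 2. These medians rest on 2 libraries each and are comparable with each other rather than with 6.58%. The spread over 3 libraries exceeded the error expected from the mean count alone in 50 of the 71. Neither this count nor the medians over 2 libraries were computed over all genes, so they show no trait particular to the members. The most even members were ATP5MF (0.517%), COX6B1 (0.607%), ATP5F1B (0.726%), NDUFS1 (0.794%) and COX5A (1.23%). Counting error was larger for each, at 4.04%, 2.43%, 1.12%, 2.58% and 3.89% in that order. The even values of ATP5MF, 59.7, 59.2 and 59.1 CPM, lie closer together than counting error usually gives. COX5A had 63.7, 64.7 and 63.1 CPM. With the GC trend removed, as described below, the coefficients were 6.10%, 5.23%, 3.73%, 4.53% and 0.852%. The evenness of all but COX5A was thus not kept.

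The least even members were NDUFV2 (25.9%), NDUFS7 (23.3%), NDUFB5 (19.7%), NDUFA11 (19.2%) and NDUFC2 (17.1%), all of complex I and all below 18 CPM on average. Counting error alone was 28.1% for NDUFV2 and 7.42 to 9.77% for the others. NDUFB5 had 14.1, 18.1 and 21.1 CPM and NDUFC2 had 9.35, 9.19 and 12.3, with replicate 3 highest for both. NDUFA11 had 16.2, 18.6 and 12.5, with replicate 3 lowest, as for NDUFS7.

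Replicate 3 was the highest of the libraries for 37 of the 71 members, against 38.6% of all genes tested, and the lowest for 26, against 41.8%. It lay at least 1.2-fold above the mean of the other replicates for 6 members, against 13.7% of all genes, and at least 1.2-fold below it for 5, against 13.4%. The share of members past either fold was thus below that of all genes, which were not matched to the members for level. The median log2 ratio of replicate 3 to the mean of replicates 1 and 2 was 0.04 over the members and -0.01 over all genes.

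This ratio followed the GC content of the gene's longest transcript. Across the 71 members Pearson's r was -0.75 and Spearman's rho -0.75, against -0.53 and -0.60 across 13843 nuclear genes. These are descriptions across genes that share the same libraries, and the sets were not matched for level. Counting error weighs more on genes with few counts, so the coefficients do not show a closer relation in the members. Of the 24 members with the lowest GC (35.0 to 44.1%), none lay below 0, and their median was 0.17. Of the 23 with the highest GC (52.4 to 65.0%), 19 lay below 0, and their median was -0.16. These shares were not computed over all genes.

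Several core subunits of complex I showed this pattern. NDUFS3, NDUFS7, NDUFS8 and NDUFV1, with 55.7 to 60.8% GC, had log2 ratios of -0.16, -0.60, -0.17 and -0.17. After the GC trend of each library was removed, NDUFS3, NDUFS8 and NDUFV1 had ratios of -0.02, -0.02 and -0.01, while NDUFS7 remained at -0.40. ATP5PF had a ratio of 0.31 despite 53.1% GC, and 0.41 with the trend removed. With the trend removed the coefficient of variation was lower for 48 of the 71 members and higher for 23, and its median was 4.86%. Over all genes that met the minimum the median also fell, from 8.69% to 6.41%, so the drop was not particular to the members. The genes with lower and higher values were not counted over all genes.

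**Figure D3:**
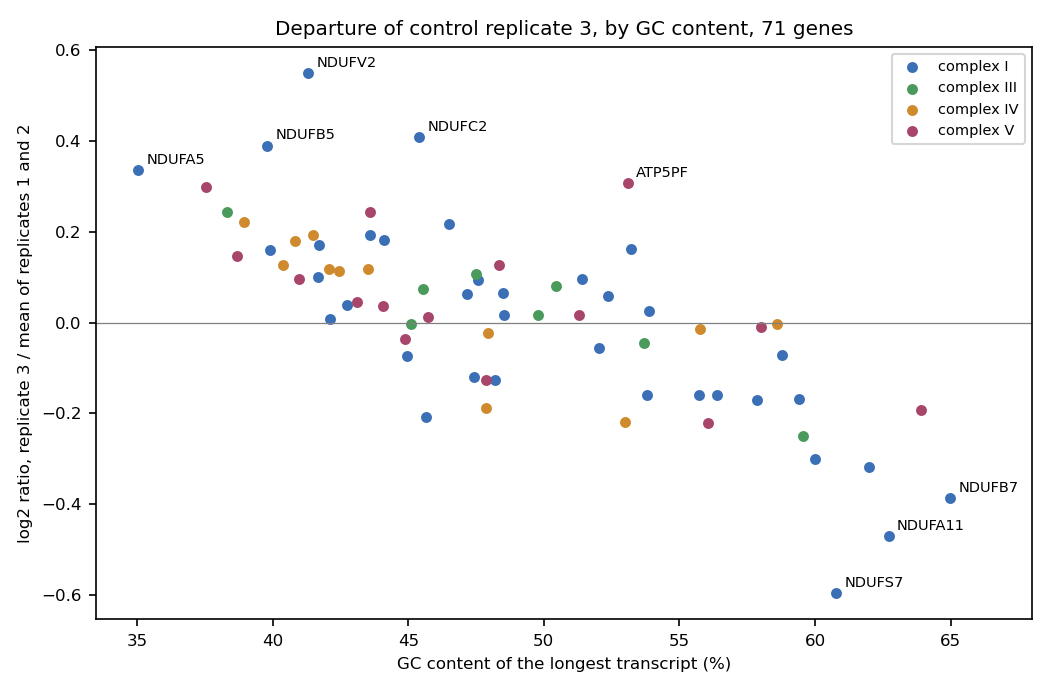
The log2 ratio of replicate 3 to the mean of replicates 1 and 2 against the GC content of the longest transcript for the 71 members that met the minimum of 10 counts, coloured by complex. The points fall from 0.34 for NDUFA5 at 35.0% GC to -0.39 for NDUFB7 at 65.0% GC, with NDUFV2, NDUFC2 and ATP5PF above the band and NDUFS7 below it.

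The partner subunits encoded in mitochondrial DNA departed from the nuclear genes in replicate 3. Their 13 genes held 3.18%, 2.86% and 4.91% of the counts in replicates 1, 2 and 3, and all 13 were highest in replicate 3. The summed level of these genes in replicate 3 exceeded the mean of the others by 0.71 on the log2 scale, whereas the sum of the 78 nuclear genes exceeded it by 0.02. The nuclear sum divided by the mitochondrial sum was 0.225, 0.253 and 0.147 in replicates 1, 2 and 3.

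By complex this ratio was 0.205, 0.229 and 0.121 for complex I, 0.314, 0.364 and 0.208 for complex III, 0.0969, 0.108 and 0.0689 for complex IV, and 1.33, 1.51 and 0.706 for complex V. In each complex replicate 3 was lowest and replicate 2 highest. The ratio compares sums of counts, not molecules, and the number of genes differs between the sums. What set the mitochondrial share of replicate 3 was not tested.

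**Figure D4:**
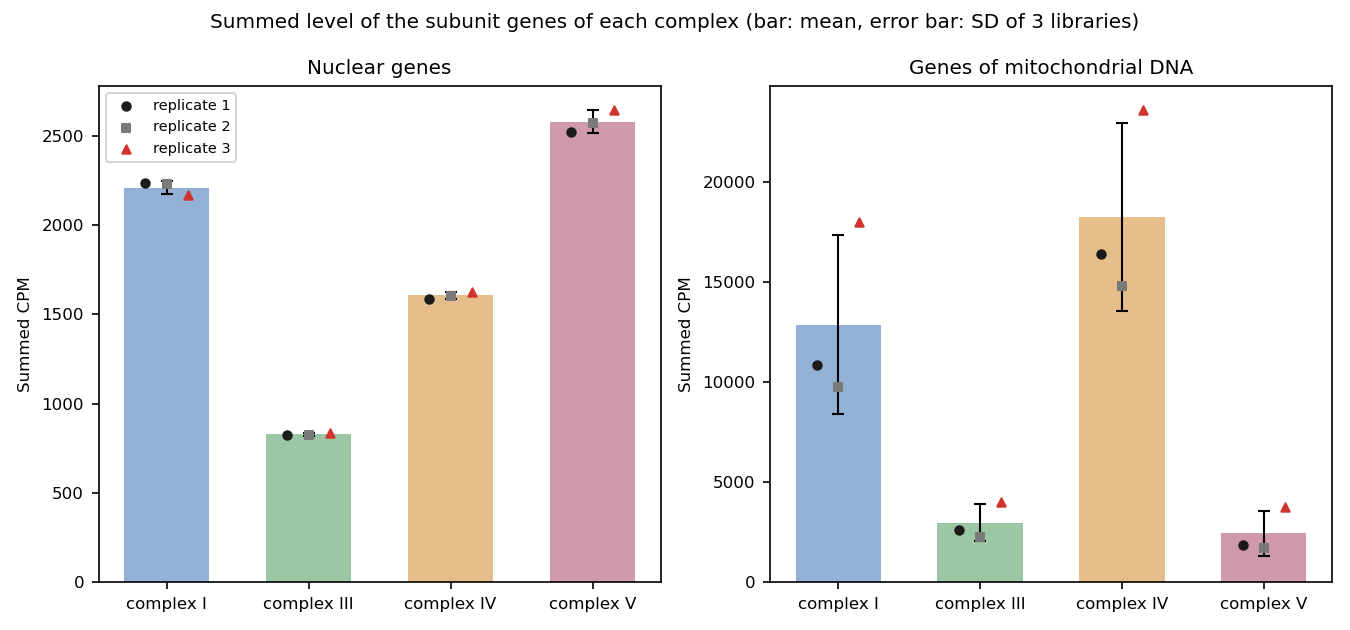
Summed CPM of the nuclear genes (left) and of the mitochondrially encoded genes (right) of each complex, with the mean as a bar, the SD of 3 libraries as an error bar and each library as a point. Nuclear sums lie within a narrow range, and replicate 3 is the highest point of every mitochondrial sum.

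Other genes of the pathway were read from fixed lists. Succinate dehydrogenase, complex II, is wholly encoded in the nucleus, and its 4 genes were summed to 149.99, 151 and 153 CPM. Per kilobase, SDHB, the iron-sulfur subunit, was highest (61.2) and SDHA, the flavoprotein, lowest (3.45), at levels of 70.6 ± 1.38 and 10.4 ± 0.480 CPM (n = 3). SDHA has near-identical pseudogenes, so its count is uncertain. Among subunits and carriers outside the rule, 7 of 8 genes passed the minimum. Per kilobase of the longest transcript ATP5MK, a small subunit of ATP synthase, was highest with 60.6 ± 11.3 CPM, and ATP5MGL was lowest with 0, 1 and 0 counts. Cytochrome c, CYCS, had 107 ± 10.1 CPM.

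Assembly factors, which build the complexes without staying in them, were lower per kilobase than the subunits in every complex. The medians over genes past the minimum were 14.9 CPM per kilobase against 36.0 for complex I, 14.9 against 41.8 for complex III, 13.7 against 76.7 for complex IV and 9.26 against 69.9 for complex V, by the longest transcript. These lists held 16, 6, 21 and 5 genes, of which 16, 6, 19 and 5 passed. Per kilobase of the longest transcript, NDUFAF8 was highest among complex I factors (71.2 CPM per kilobase) and NUBPL, an iron-sulfur carrier, lowest (1.99). By the median length TIMMDC1 (143) and TMEM186 (14.2) took these places.

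SURF1, whose loss is known to cause Leigh syndrome, was highest among complex IV factors by the longest transcript, with 73.3 CPM per kilobase against 51.8 for LRPPRC, a stabiliser of mitochondrial mRNA. By the median length LRPPRC was highest, with 271 against 86.0. SCO2, a copper chaperone, was lowest under both lengths, with 6, 8 and 2 counts. UQCC1 and ATPAF1 led the lists of complexes III and V under both lengths, with 75.8 ± 2.10 and 67.2 ± 1.34 CPM (n = 3). FMC1 was lowest in the list of complex V under both lengths, with 3.16 ± 0.0760 CPM. In the list of complex III, LYRM7 was lowest by the longest transcript (3.71 CPM per kilobase against 4.06 for UQCC3) and UQCC3 by the median length (4.39 against 51.1).

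Of 13 regulators of mitochondrial biogenesis, 12 passed the minimum. Per kilobase, YY1 was highest with 173 ± 10.99 CPM (n = 3), and PPARGC1A, the coactivator known for inducing respiratory genes, was lowest with 0, 5 and 2 counts. NRF1 was measured at 46.7 ± 3.65 CPM, GABPA at 27.8 ± 2.77 CPM and TFAM, which packages mitochondrial DNA, at 49.2 ± 6.84 CPM. The coactivator PPARGC1B had 2.04 ± 0.294 CPM or 0.193 per kilobase, and its relative PPRC1 had 76.1 ± 5.62 CPM, or 14.3 per kilobase.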

How the data were processed

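Messenger RNA of SH-SY5Y cells was sequenced from libraries made with a stranded kit, per the labels. Whole-number read counts for each Ensembl gene were deposited by the authors, without normalization. The submitters' processing notes name fastp 0.21.1, STAR 2.7.7a, featureCounts and GRCh38. The annotation release, the strand setting and the treatment of shared reads are not given in the sources used here. The 3 count columns that carry no sample's number were not used. One gene, whose entry is broken by 2 lines that name no gene, was left out, and symbols matched 60436 of 60709 genes.

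Counts were scaled to CPM with TMM factors (edgeR 4.0.16, R 4.3.3, Python 3.11.15). Levels between genes were divided by the length of the longest transcript in GENCODE release 29, or by the median length. The principal mRNA was the longest transcript with the best APPRIS rank. Shared stretches of 50 bases were sought in transcripts of genes elsewhere. The GC trend was the median deviation in 50 bins over 10290 nuclear genes whose mean count reached 100. A count of 0 allows 3 counts, 0.263 to 0.339 CPM, and such limits cover counting error only. Simulated counts were used to check the ratio step and a spread corrected for counting error, in genes with at least 100 expected counts. They held no GC trend, and the median of uncorrected coefficients given here was not checked.

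The comparison of treated with control libraries was planned with edgeR and not run, since treated columns were not matched. Full values are given for the 2 highest and 2 lowest members per complex by CPM per kilobase, the paralog sets, and the 5 most and least even members; others named were chosen after their values were seen, and 1 member is counted in the sums but not reported here by name. From lists, the highest and lowest gene are named. Members, lists and alternatives were chosen with earlier results of these data known.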

Additional observations from a re-analysis of the deposited data

How the results depend on the processing

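No paired analysis was possible because only control samples had matching columns, and fits of treated against control libraries (block, DESeq2, no filter, replicates left out) were not run. The remaining values have no test, so alternatives for levels and sums were compared with 1 SD between libraries. For the median coefficient of variation the SD was that of the medians with a replicate left out. Those medians were thus judged against their own SD. For the log2 ratio it was the SD of the medians of each library against the others. Leaving mitochondrial genes out of the library total raised the summed level from 7220.4 to 7579 CPM, complex I to 2319, III to 869, IV to 1686 and V to 2706 CPM, and the median over all 78 members from 45.1 to 47.4 CPM per kilobase, since the total is then smaller. That median was 94.4 with the median transcript length, 53.9 with the principal mRNA length (chosen after seeing the data) and 49.4 over the 71 members that met the count minimum. Counting NDUFA4 with complex I, also chosen afterwards, gave 2410 CPM for complex I and 1405 for complex IV, and leaving out the 5 members with over 50% shared mRNA gave 7157 CPM in all. The median coefficient of variation was 6.58% over 3 libraries. It ranged from 3.14% to 7.25% over 2 libraries when a replicate was left out, with the lowest value without replicate 3. The other 53 values stayed within 1 SD or, for counts of members, within 1.5 times. A mean of 3 moves by less than 1 SD whichever library is left out, so this says nothing of the stability of the levels. Of single members, 27 of 78 moved by over 1 SD when mitochondrial genes were left out, and none under RLE factors or library totals alone. Counts were lowest for NDUFV2, NDUFA7 and the COX paralogs below the minimum, so counting error weighs most on these. What set their low counts was not tested.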
